A study of Mus musculus with 16 samples.

Results

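Ivermectin, an antiparasitic drug, acts on several kinds of vertebrate membrane channel and on a nuclear receptor. The 8 genes described here encode such proteins: the glycine receptor subunits Glra1, Glra3 and Glrb, the GABA-A receptor subunits Gabrb2 and Gabra4, the nicotinic acetylcholine receptor subunit Chrna7, the potassium channel subunit Kcnj6 (GIRK2), and the bile acid receptor Nr1h4 (FXR). They were chosen by name, because their products are reported to bind ivermectin, from 23329 genes listed in a count table of BetaTC6 cells, and all 8 were found there. BetaTC6 is a mouse pancreatic β-cell line derived from an insulinoma, with a C57BL/6 strain background per the labels. The 16 libraries of polyadenylated RNA formed 4 groups of 4: wild-type cells with DMSO as vehicle, wild-type cells with ivermectin, and cells labelled P2ry1 knockout with either. All groups had grown for 3 days and then received buffer without glucose followed by 20 mM glucose for 30 min, with ivermectin present or absent during the glucose step. The ivermectin concentration, the way the knockout was made and whether it is 1 clone are not given in the sources used here. Nothing in the labels says that the 4 libraries of a group came from separate cultures, so p-values measure only the spread between these samples, which may be technical.

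Glycine, GABA-A and nicotinic receptors are pentameric channels of the Cys-loop family, each assembled from several subunits around a central pore. Glycine and GABA-A receptors pass chloride, and neuronal nicotinic receptors pass cations when acetylcholine binds. GIRK channels are inwardly rectifying potassium channels that open when G protein βγ subunits bind them, and FXR is a transcription factor that pairs with a retinoid X receptor and responds to bile acids. In pancreatic islets, GABA made by β-cells acts on GABA-A receptors, and a glycine receptor has been described in human β-cells.

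The deepest library had 2013242 counts and the shallowest 893088, 2.25-fold fewer; the 4 shallowest were those of wild-type vehicle. Levels per library are given as CPM, the count rescaled so that all libraries have the same size. With 3 counts as the most that a 0 can hide, a gene with no count in a library could stand at 1.49 to 3.36 CPM there, depending on its depth; such limits cover counting error only. P2ry1 itself, the gene named in the knockout label, stood at 94.6 ± 8.57 CPM (SD, n = 4) in wild-type vehicle and 84.0 ± 8.98 in knockout vehicle, and at 93.1 ± 7.58 and 85.5 ± 4.95 with ivermectin. Its transcript level did not separate the genotype labels (edgeR adjusted p = 0.245 and 0.394), so the groups are called by their labels and "knockout" below means a library labelled so; an edit that leaves the transcript in place would not be seen in these counts. All 15 β-cell markers passed the count filter used for testing, described below, and summed to 35943.9 to 47312.3 CPM in the 16 libraries. The 15 hepatocyte markers, none at 0, summed in wild-type cells to 674.9 to 1857.3 CPM with vehicle and 201.7 to 406.8 with ivermectin. Under the knockout label they summed to 59.2 to 121.3 and 81.5 to 282.0 CPM. In bulk RNA, fewer cells of a type and less RNA per cell cannot be told apart. Of 11 neuron markers 6 passed that filter, at summed levels of 1396.9 to 1640.6 CPM, and none of 7 skeletal muscle markers did, with Myh1 and Mb at 0, Acta1 at 74 counts in 15 libraries and Ckm at 35 in 13. The muscle markers summed to 13.5 to 24.6 CPM in wild-type and 1.5 to 3.5 in knockout vehicle libraries, and with ivermectin to 2.7 to 18.5 and 0.6 to 3.9 CPM. Of 10 markers of other pancreatic cells none passed it, with Prss1, Cpa1, Amy2b and Krt19 at 0. Of 8 markers of other islet cells, none at 0, 3 passed it (Gcg, Sst and Irx2). In vehicle these 8 summed to 483.2 to 567.5 CPM in wild-type and 234.6 to 260.1 in knockout libraries, and with ivermectin to 524.3 to 549.7 and 235.9 to 285.9 CPM. Sst, the hormone of δ-cells, fell with the knockout label (log2 difference -3.80 in vehicle and -3.62 in ivermectin, edgeR adjusted p = 2.92e-23 and 1.65e-23). Gcg, the hormone of α-cells, fell by less (log2 difference -0.46 and -0.37, edgeR adjusted p = 9.69e-06 and 9.40e-05). The part of the islet and muscle markers in the genotype differences given below was not tested. The library of wild-type ivermectin replicate 4 stood apart in ribosomal precursor transcript Rn45s, which took 2.986% of its counts.

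Of the 8 genes, 4 (Glrb, Gabra4, Chrna7 and Kcnj6) had enough counts to be tested. The filter was edgeR's filterByExpr, which asks for about 10 counts in a library of median size in at least 4 libraries and for 15 in total. Over all genes listed the same filter kept 46.4%. Nr1h4 also had a mean of at least 1 TPM (a level per transcript length, scaled to a common total per library) in at least 1 group, which made 5 of 8, where 56% of all genes did. Gabrb2 joined these at a mean of at least 1 CPM in a group, or at 1 count or more in at least 8 libraries. Each of these definitions gave 6 of 8, against 57.9% and 58.7% of all genes. Glra1 and Glra3 were expressed under none of the 4 definitions.

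The counts behind these calls differed widely. Glrb had 1132 counts over the 16 libraries, Gabra4 602, Chrna7 244 and Kcnj6 124, each with counts in every library. Nr1h4 had 71 counts, in 15 of the libraries. Gabrb2 had 19 counts in 9 libraries, Glra3 had 8 in 6, and Glra1 had 1 count in 1 library, where all genes and libraries together had 25014915. In mean TPM over the 16 libraries the order was Glrb (23.2), Gabra4 (8.51), Chrna7 (7.04), Kcnj6 (3.05), Nr1h4 (2.26), Glra3 (0.389), Gabrb2 (0.176) and Glra1 (0.0781). Glrb lay above 77.6% of all genes listed and Gabra4 above 63.9%, while Nr1h4 lay above 52.3% and Glra1 above 31.3%. These percents include the genes at 0, which share rank 17738 of 23329, so 1 count places a gene above all of them. Glrb was higher than Gabra4 in 16 of 16 libraries, a step that exceeded the spread in every group. Gabra4 was above Chrna7 in 14 libraries, but their ranges overlapped in all 4 groups. Chrna7 was above Kcnj6 in 14 libraries, with ranges apart in 2 groups. Kcnj6 and Nr1h4 could not be ordered, since Kcnj6 was the higher in 9 of 16. Glra3, Gabrb2 and Glra1 rest on so few reads that their order is not resolved.

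**Figure D1:**
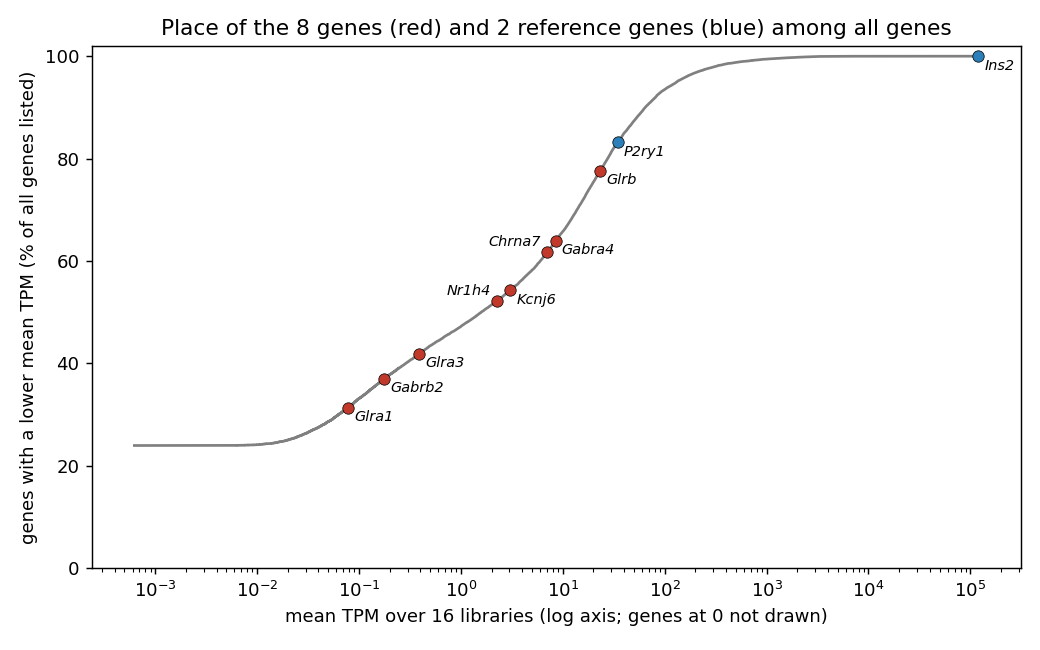
Place of the genes among all genes listed. The horizontal log axis is the mean TPM over 16 libraries and the vertical axis the percent of all genes with a lower mean TPM; the grey line is every gene above 0, red points are the 8 genes and blue points P2ry1 and Ins2. Glrb, at 23.2 TPM, is the highest red point, and Glra1, at 0.0781 TPM, the lowest.

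The sequence just upstream of the start of transcription differs among these genes in its content of CG dinucleotides, the letters that make up CpG islands at many widely expressed promoters. RefSeq start sites on GRCm38.p6 were found for 7 of the 8 genes, 10 starts in all; Glra1 is named only. Glrb, Gabra4 and Chrna7, which were tested, and Glra3, which had few counts, are shown as the 250 bases before the start, 5′ to 3′ on the gene's strand, with each CG in capitals. They were printed because they span the range from the highest gene to one with 8 counts.
Glrb, chr3:80913661-80913910, minus strand: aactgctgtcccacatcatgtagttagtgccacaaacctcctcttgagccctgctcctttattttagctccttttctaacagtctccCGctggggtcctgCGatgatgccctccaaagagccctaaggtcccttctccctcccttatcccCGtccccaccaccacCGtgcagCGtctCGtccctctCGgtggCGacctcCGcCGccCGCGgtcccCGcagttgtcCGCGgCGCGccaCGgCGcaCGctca
Gabra4, chr5:71658309-71658558, minus strand: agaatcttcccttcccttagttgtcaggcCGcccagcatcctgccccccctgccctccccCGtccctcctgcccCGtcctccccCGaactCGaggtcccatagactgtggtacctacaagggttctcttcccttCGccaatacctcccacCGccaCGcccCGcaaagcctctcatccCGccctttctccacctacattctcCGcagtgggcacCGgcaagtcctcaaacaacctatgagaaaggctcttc
Chrna7, chr7:63212527-63212776, minus strand: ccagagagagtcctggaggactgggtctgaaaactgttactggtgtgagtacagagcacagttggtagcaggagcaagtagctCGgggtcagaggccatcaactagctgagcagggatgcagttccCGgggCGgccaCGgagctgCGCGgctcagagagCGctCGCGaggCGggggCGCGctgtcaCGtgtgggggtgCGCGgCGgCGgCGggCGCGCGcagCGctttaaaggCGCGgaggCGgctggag
Glra3, chr8:55940168-55940417, plus strand: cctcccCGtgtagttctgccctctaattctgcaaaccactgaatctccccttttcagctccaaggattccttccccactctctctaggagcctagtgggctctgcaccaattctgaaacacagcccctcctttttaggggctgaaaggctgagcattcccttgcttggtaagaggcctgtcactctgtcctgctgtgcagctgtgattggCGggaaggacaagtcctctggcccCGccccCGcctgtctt
The motif CG reads the same on both strands. Chrna7 had 25 of them, a number reached by 10.7% of 32851 starts of all genes, where the median was 6. Glrb had 20 (17.9% of starts have as many), Gabra4 12 (33.5%) and Glra3 4 (62.2%). Kcnj6 has 2 starts, 1 with 26 (9.6%) and 1 with 7 (46.3%). The 3 starts of Gabrb2 had 8, 8 and 4. The 1 start found for Nr1h4 had 5. Its window, chr10:89506659-89506908 on the minus strand, lies inside the gene, and the sequence before the gene's outer end was not examined. These are descriptions of letters in a window, set beside the levels without a test.

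Among glycine receptor genes, Glrb alone was expressed. Glrb encodes the β subunit, which anchors the receptor to gephyrin and joins α subunits in the native channel. It lies at chr3:80843598-80913660 (GRCm38.p6). Its levels in wild-type vehicle were 45.0, 47.9, 35.3 and 44.6 CPM. In wild-type ivermectin they were 45.5, 42.8, 45.7 and 48.2 CPM. In knockout vehicle they were 37.8, 50.2, 42.4 and 40.3 CPM, and in knockout ivermectin 44.5, 54.3, 50.3 and 51.8 CPM. The 4 ranges overlap, and 3 of 4 knockout ivermectin libraries lie above every knockout vehicle library. The α subunits carry the glycine site and, in channels of α subunits alone, the ivermectin site. The 4 listed α genes together gave few counts: 1 for Glra1, 1 for Glra2, 8 for Glra3 and 3 for Glra4. Of the 8 Glra3 counts, 2 were in wild-type and 1 in knockout vehicle libraries; with ivermectin, wild type had 0 and knockout 5. The 1 Glra1 count was in wild-type vehicle replicate 2. For Glra1, a sum of 0 over a group allowed up to 0.451 CPM in wild-type ivermectin; for the knockout label the limits were 0.392 with vehicle and 0.441 with ivermectin. Gephyrin (Gphn) was expressed at 51.2 ± 8.57 CPM in wild-type and 42.4 ± 6.11 in knockout vehicle (SD, n = 4).

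Gabra4 encodes the α4 subunit of GABA-A receptors, which in the brain is found mostly outside synapses. It lies at chr5:71569734-71658308. In wild-type cells it stood at 11.2, 21.5, 18.2 and 25.1 CPM with vehicle. With ivermectin it stood there at 24.5, 20.8, 17.2 and 23.7 CPM. The knockout vehicle libraries had 24.4, 29.6, 30.9 and 28.6 CPM, and the knockout ivermectin libraries 22.0, 24.6, 32.0 and 20.7 CPM. The knockout vehicle libraries are the high group and overlap wild-type vehicle in 1 library, while 3 of the 4 lie above all wild-type vehicle libraries. Gabrb2 encodes a β subunit, and β subunits line the pore and help form the GABA site. Its counts in wild-type vehicle were 3, 0, 1 and 2, and in wild-type ivermectin 0, 4, 1 and 3. They were 0, 2, 0 and 0 in knockout vehicle and 0, 0, 2 and 1 in knockout ivermectin. Its mean level thus stood at 1.57 ± 1.42 CPM in wild-type vehicle and 0.251 ± 0.502 in knockout vehicle (SD, n = 4). The knockout vehicle mean, from 2 counts, lies under the 0.392 CPM that a sum of 0 over that group allows, and the wild-type vehicle mean, from 6 counts, above its 0.769 CPM.

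**Figure D2:**
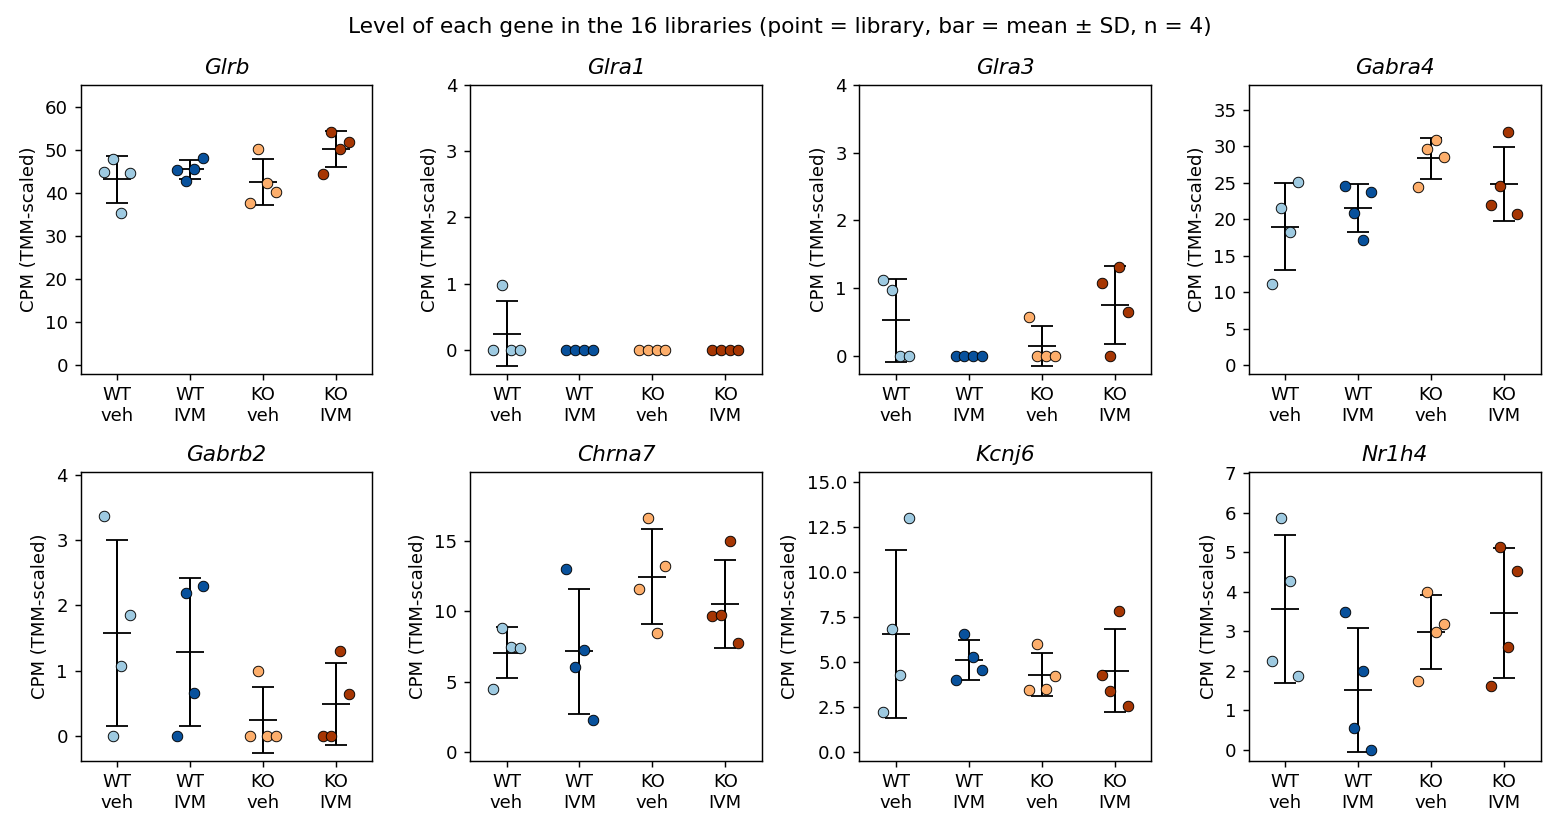
Levels of the 8 genes in each library, 1 panel per gene, as TMM-scaled CPM on a vertical axis of its own range; points are libraries, bars are the mean and SD of 4 libraries. WT and KO stand for wild type and the knockout label, veh and IVM for vehicle and ivermectin. Knockout vehicle is the highest group for Gabra4, at 28.4 CPM, and for Chrna7, at 12.5 CPM, and the points of Glra1 are at 0 in 15 of 16 libraries.

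Of 19 listed GABA-A receptor subunits, 5 were tested, Gabra3, Gabra4 and Gabrq among them. Gabra4 was the highest of these 3, at 8.51 TPM beside 5.63 for Gabrq and 2.47 for Gabra3. Gabra3, the α3 subunit, was lower in knockout than in wild-type vehicle, at 3.79 ± 1.53 against 9.90 ± 1.87 CPM (SD, n = 4; log2 difference -1.36, edgeR adjusted p = 0.00504), the direction opposite to that of Gabra4. With ivermectin, knockout libraries were lower in Gabrq, the θ subunit, at 3.66 ± 1.61 against 8.59 ± 0.551 CPM (log2 difference -1.19, edgeR adjusted p = 0.00550). Both calls held in every setting in which the gene was tested. The medians of all 10820 genes tested for knockout against wild type were -0.000656 in vehicle and -0.0004 in ivermectin. None of the 5 passed for ivermectin against vehicle in either genotype. Gad2, which makes GABA, fell with the knockout label, from 36.3 ± 3.61 to 16.6 ± 1.1 CPM in vehicle (log2 difference -1.12, edgeR adjusted p = 2.56e-06), and Gad1 had 0 counts. Gabarap, first described as a GABA-A receptor-associated protein and also part of autophagy, rose from 354 ± 24.4 to 535 ± 44.6 CPM (log2 difference 0.60, edgeR adjusted p = 3.99e-08). It was the 1 gene that rose of 9 tested in a list of 11 for receptor clustering and chaperones, and Sdcbp the 1 that fell (log2 difference -0.28); the same counts were found in ivermectin. Over all genes tested, 20.7% passed in vehicle and 27.8% in ivermectin, so 2 of 9 is near that background. Of 13 genes for GABA and glycine synthesis and transport 6 were tested, and 3 passed in vehicle and 4 in ivermectin, beside the same 20.7% and 27.8%. In vehicle Gad2 fell and Shmt1 and Shmt2, which make glycine from serine, rose (log2 differences 0.60 and 0.22). In ivermectin Abat, which breaks down GABA, also fell (log2 difference -0.30; edgeR adjusted p = 0.0539 without knockout ivermectin replicate 3). The Shmt2 call in vehicle ended in 8 other settings, 5 of them the loss of a single library (wild-type replicates 2, 3 and 4, knockout replicates 1 and 4), with adjusted p up to 0.229; in ivermectin Shmt2 kept its call in every setting run.

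Chrna7 encodes the α7 subunit, which can form a channel alone, and ivermectin is known to potentiate that channel. It lies at chr7:63098692-63212526. Wild-type vehicle libraries held 4.50, 8.80, 7.48 and 7.43 CPM. Wild-type ivermectin libraries held 13, 6.03, 7.29 and 2.30 CPM, the widest spread of the groups for this gene. Knockout vehicle libraries held 11.6, 16.6, 8.48 and 13.2 CPM, and knockout ivermectin libraries 9.65, 9.71, 15.0 and 7.76 CPM. Knockout vehicle lies above wild-type vehicle in 3 of 4 libraries, and with ivermectin the genotypes overlap, with 1 knockout library above all wild-type libraries. The highest and the lowest library of wild-type ivermectin are replicates 1 and 4. Replicate 4 is also the library with 2.986% Rn45s, and the part of that in its low level was not tested.

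The other nicotinic subunits gave a different order of levels. Of 16 listed, 5 were tested: Chrna3, Chrna4, Chrna7, Chrnb2 and Chrnb4. Chrnb2 was the highest, at 15.1 TPM, above Chrna7 at 7.04 and Chrna3 at 6.16. Chrnb4, the β4 subunit found with α3 in ganglia, fell with the knockout label. In vehicle it went from 14.3 ± 2.67 to 5.25 ± 2.18 CPM (SD, n = 4; log2 difference -1.43, edgeR adjusted p = 0.000711). In ivermectin it went from 11.5 ± 1.31 to 6.84 ± 2.85 CPM (log2 difference -0.77, edgeR adjusted p = 0.0378). The second call was lost with DESeq2 (adjusted p = 0.0959), with thinned counts, and without any one of wild-type replicates 1, 2 and 3 or knockout replicates 1, 2 and 4 (edgeR adjusted p = 0.0587 to 0.109). The other 4 passed in no comparison, so 1 of 5 was called in each setting, beside 20.7% of all genes tested in vehicle and 27.8% in ivermectin. The median of the 5 was -0.30 in vehicle and -0.0904 in ivermectin. Of the chaperones that help α7 fold, Ric3 was tested and did not pass (log2 difference -0.15 in vehicle, edgeR adjusted p = 0.476), and Tmem35, the gene of NACHO, had 1 count.

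Kcnj6 encodes GIRK2, a G protein-gated potassium channel subunit that can form channels alone or with Kcnj3, Kcnj5 or Kcnj9. It lies at chr16:94744980-94997696. Its wild-type vehicle libraries had 2.25, 6.85, 4.28 and 13 CPM. Its wild-type ivermectin libraries had 4, 6.58, 5.30 and 4.59 CPM. Knockout vehicle gave 3.48, 6.02, 3.49 and 4.24 CPM, and knockout ivermectin 4.29, 3.43, 7.84 and 2.59 CPM. The groups overlap throughout, and both the lowest and the highest of the 16 libraries are wild-type vehicle. The partner subunits were close to absent: Kcnj3 had 4 counts over 16 libraries, Kcnj9 3 and Kcnj5 0. Kcnj6 was thus the 1 GIRK gene of 4 that was tested.

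**Figure D3:**
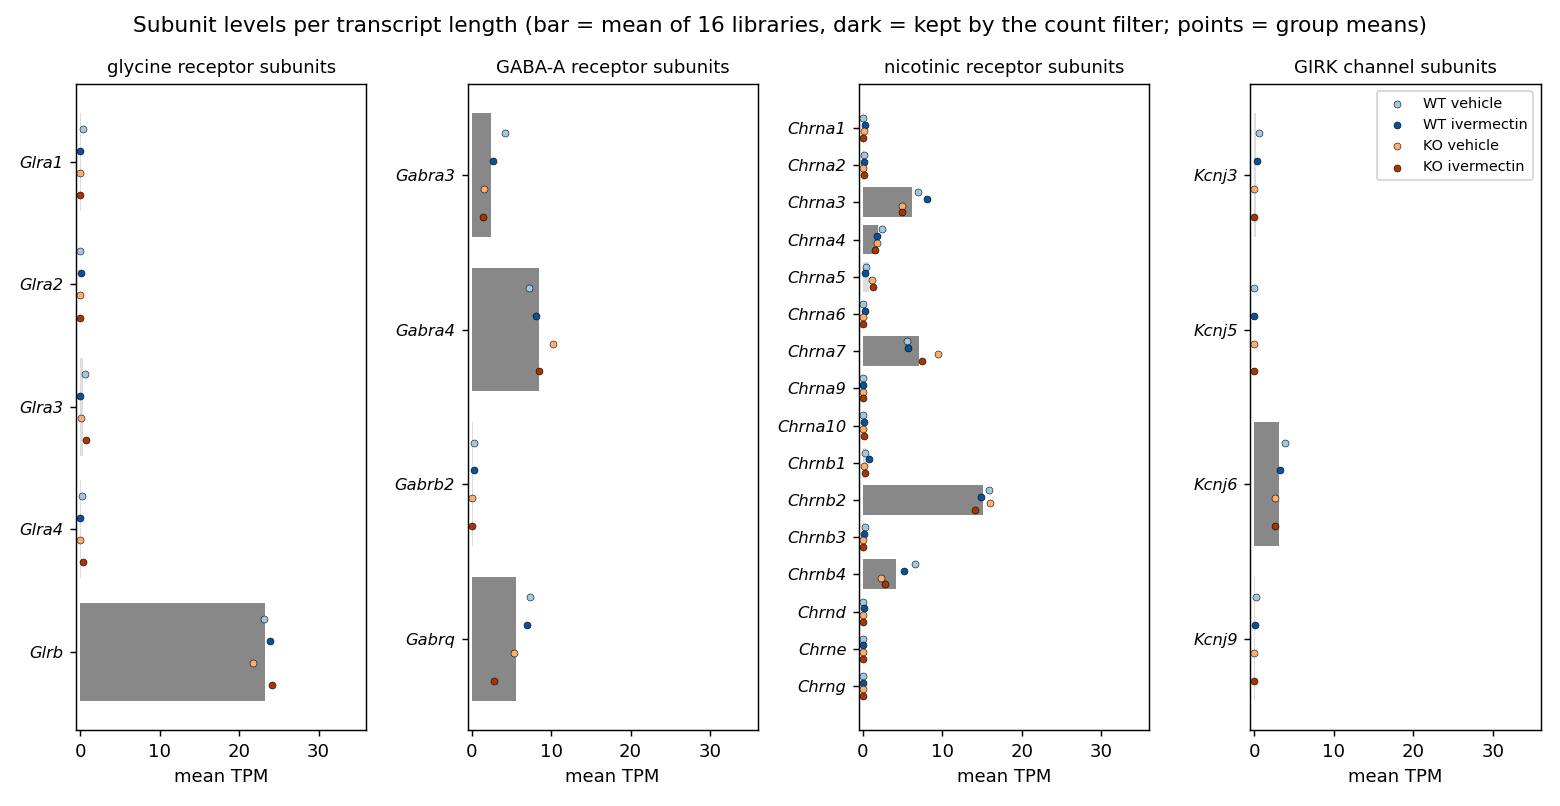
Levels of the listed glycine, nicotinic and GIRK subunits and of 4 GABA-A subunits (Gabra3, Gabra4, Gabrb2 and Gabrq), as the mean TPM of each group of 4 libraries (coloured points, linear axis); grey bars are means over 16 libraries, dark where the gene was tested. Glrb, Chrnb2 and Kcnj6 are the highest genes of the glycine, nicotinic and GIRK families, and the glycine receptor α genes and the GIRK partners lie close to 0.

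Nr1h4, with 71 counts in 15 libraries, was the highest of the 4 genes below the filter. It encodes FXR, which in liver and intestine controls bile acid synthesis and export, and it lies at chr10:89454234-89533645. Its wild-type vehicle libraries had 2.25, 5.87, 4.28 and 1.86 CPM. Its wild-type ivermectin libraries had 3.5, 0.548, 1.99 and 0 CPM. Knockout vehicle gave 1.74, 4.01, 2.99 and 3.18 CPM, and knockout ivermectin 1.61, 5.14, 2.61 and 4.53 CPM. Wild-type ivermectin is the low group, with 2 of 4 libraries below all of wild-type vehicle, including the library with no count. FXR is also a hepatocyte gene. Beside the summed hepatocyte markers given above, mean Nr1h4 in wild-type cells was 3.56 ± 1.87 CPM with vehicle and 1.51 ± 1.57 with ivermectin, and under the knockout label 2.98 ± 0.938 and 3.47 ± 1.64 CPM (SD, n = 4). The part of hepatocyte transcripts in these levels was not tested. Of 16 genes of an FXR list (partners, coregulators and targets), 3 were tested: the partners Rxra and Rxrb and the coactivator Ncoa1. The targets Fgf15, Osta, Ostb and Fabp6 and the related receptor Nr1h5 had 0 counts, while Nr0b2 (SHP) had 16 counts and Abcb11, the bile salt pump, had 51. For knockout against wild type, 1 of the 3 passed in vehicle and 1 in ivermectin. Of all genes tested, 20.7% and 27.8% did, and with 3 genes these shares cannot be told apart. Rxrb was higher in knockout vehicle, at 87.7 ± 4.69 against 66.8 ± 9.62 CPM (log2 difference 0.39, edgeR adjusted p = 0.0104). Ncoa1 was lower in knockout ivermectin than in wild-type ivermectin, at 58.2 ± 8.18 against 74.3 ± 5.46 CPM (log2 difference -0.34, edgeR adjusted p = 0.0267). The Rxrb call ended without wild-type vehicle replicate 2 (edgeR adjusted p = 0.0727) and with counts thinned to the smallest total (0.0676). The Ncoa1 call ended with DESeq2 (adjusted p = 0.0529) and without wild-type ivermectin replicate 3 or knockout ivermectin replicate 3 or 4 (edgeR adjusted p = 0.0919, 0.103 and 0.0781).

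Ivermectin against vehicle addressed whether 30 min of the drug moved the transcripts of its own reported targets. In wild-type cells none of the 4 genes tested passed an adjusted p of 0.05, where 0.601% of 10820 genes did. Among the genes that passed were 13 of the 15 hepatocyte markers, all lower with ivermectin, and their source was not tested. The log2 differences were 0.07 for Glrb (95% interval -0.21 to 0.34), 0.16 for Gabra4 (-0.26 to 0.59), 0.09 for Chrna7 (-0.70 to 0.88) and -0.41 for Kcnj6 (-1.25 to 0.43). None had an unadjusted p under 0.05, where 5.2% of genes did. In knockout cells none of the 4 passed either, where 0% of genes did in edgeR and 0 in DESeq2, and 820 genes (7.58%) had an unadjusted p under 0.05. Glrb came nearest, with a log2 difference of 0.23 (95% interval -0.0042 to 0.46, edgeR adjusted p = 0.659). The differences were -0.21 for Gabra4 (-0.53 to 0.12), -0.25 for Chrna7 (-0.82 to 0.31) and 0.05 for Kcnj6 (-0.77 to 0.87). Chrna7 moved to -0.0771 without knockout vehicle replicate 2 and to -0.45 without knockout ivermectin replicate 3. The interaction of genotype with ivermectin passed for none of the 4, where 0.222% of genes passed, 8 of the 15 hepatocyte markers among them. The intervals of the interaction ran from -0.20 to 0.52 for Glrb and from -0.71 to 1.64 for Kcnj6. The interval widths follow the counts: Glrb, with the most, was bounded to less than a log2 difference of 0.5 in either direction in both genotypes, while for Kcnj6 the interval in wild-type cells reached -1.25.

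Knockout against wild type gave 1 call, Gabra4 in vehicle. Of the 4 genes tested 1 passed, where 20.7% of all genes did (9.86% higher), a share close to that background. Gabra4 rose from 19.0 ± 5.89 to 28.4 ± 2.82 CPM (SD, n = 4), a log2 difference of 0.56 (SE 0.196, 95% interval 0.16 to 0.96), 1.47-fold, edgeR adjusted p = 0.0394. In ivermectin the same difference was 0.19 (-0.17 to 0.54, edgeR adjusted p = 0.458), and the change between the 2 settings, the interaction, was -0.37 (-0.91 to 0.17, edgeR adjusted p = 0.9998). DESeq2 gave Gabra4 an adjusted p of 0.0922, and leaving out any of 6 single libraries ended the call, wild-type vehicle replicate 1 most of all (log2 difference 0.39, edgeR adjusted p = 0.171). That library holds the lowest Gabra4 of its group, and also its highest Alb, at 0.0919% of counts; all 15 hepatocyte markers were lower in knockout than in wild-type vehicle, and their part in the Gabra4 difference was not tested. Of 6 neuron markers tested, 4 were lower with the knockout label in vehicle. The 11 neuron markers summed to 1549.3 to 1640.6 CPM in wild-type and 1437.6 to 1534.8 in knockout vehicle libraries. Sst and Gcg were lower there too, as given above. The part of these markers in the Gabra4 difference was not tested.

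Chrna7 was also higher in knockout vehicle, at 12.5 ± 3.36 against 7.05 ± 1.82 CPM, but did not pass (log2 difference 0.80, 95% interval 0.09 to 1.51, unadjusted p = 0.028, edgeR adjusted p = 0.101). Kcnj6 differed by -0.65 (-1.50 to 0.20, edgeR adjusted p = 0.287), and by -0.0675 (edgeR adjusted p = 0.948) without wild-type vehicle replicate 4, its highest library. Glrb differed by -0.02 (-0.29 to 0.25, edgeR adjusted p = 0.953). In ivermectin none of the 4 passed, where 27.8% of genes did. Chrna7 differed there by 0.46 (-0.18 to 1.1, edgeR adjusted p = 0.297), and by 0.96 (edgeR adjusted p = 0.0421) without wild-type ivermectin replicate 1 and 0.22 (edgeR adjusted p = 0.623) without replicate 4. The values of Glrb and Kcnj6 were 0.14 (-0.09 to 0.38) and -0.19 (-0.999 to 0.62). In none of the 4 contrasts did the 2 groups of any of the 4 tested genes lie apart. For ivermectin against vehicle, 3.35% of all genes tested lay apart in wild type and 3.69% in knockout. For knockout against wild type, 22.1% lay apart in vehicle and 25.3% in ivermectin. The groups of the other 4 genes overlapped too, but these shares do not cover genes below the filter. Over the 4 genes the median log2 difference of knockout against wild type was 0.27 in vehicle and 0.17 in ivermectin, beside -0.000656 and -0.0004 over all genes tested. The contrasts share groups: each vehicle group enters 2 of them, and each ivermectin group likewise.

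**Figure D4:**
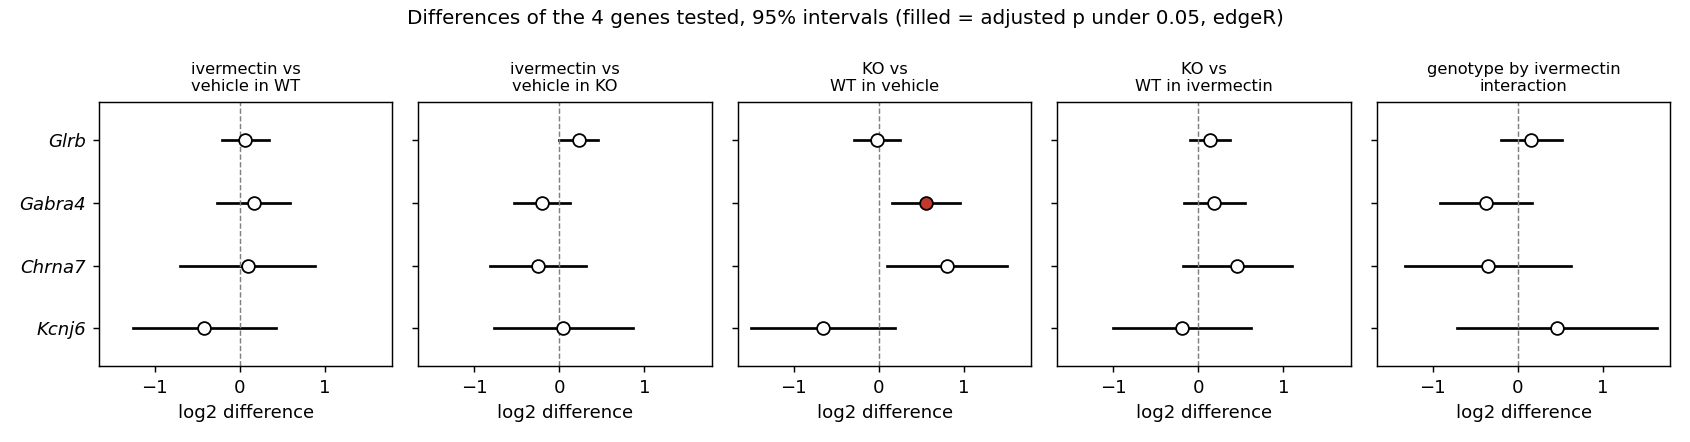
Log2 differences of the 4 tested genes in the 5 comparisons, with 95% intervals; the horizontal axis is the log2 difference and the dashed line marks 0; filled points have an adjusted p under 0.05. Of the 20 intervals, those of Gabra4 (0.16 to 0.96) and Chrna7 (0.09 to 1.51) for knockout against wild type in vehicle lie wholly above 0, and Gabra4 there has the adjusted p under 0.05.

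The 4 genes below the filter were fitted in an alternative with no filter, over 17703 genes, and none passed there in any comparison. Of the genes in that fit, 0.791% passed for ivermectin in wild type, 0.13% for ivermectin in knockout and 0.463% for the interaction; for knockout against wild type, 15% passed in vehicle and 17.5% in ivermectin. The smallest adjusted p was 0.0977, for Glra3 in knockout against wild-type ivermectin, which sets 5 counts against 0. Gabrb2 in knockout against wild-type vehicle, 2 counts against 6, had an edgeR adjusted p of 0.166. For Nr1h4 the log2 differences were -1.07 for ivermectin in wild type (edgeR adjusted p = 0.894) and 1.04 for knockout against wild type in ivermectin (edgeR adjusted p = 0.200).

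Other proteins reported to bind ivermectin were at hand as a second list, and 10 of its 11 genes were tested. P2rx4, an ATP-gated channel that ivermectin potentiates, stood at 23.2 TPM, level with Glrb. It did not pass for knockout against wild type (log2 difference 0.20 in vehicle and 0.26 in ivermectin, edgeR adjusted p = 0.441 and 0.207). Of the 10, 2 rose and 1 fell with the knockout label in vehicle, and 2 rose and 1 fell in ivermectin, beside 20.7% and 27.8% of all genes tested that passed in either direction. Abcb1b, a P-glycoprotein that exports ivermectin, was at 20.6 ± 2.33 against 10.5 ± 3.88 CPM in vehicle (SD, n = 4; log2 difference 0.98, edgeR adjusted p = 0.00172) and at 21.1 ± 2.23 against 10.1 ± 0.994 in ivermectin (1.07, edgeR adjusted p = 0.000122). The kinase Pak1 was at 21.5 ± 4.05 against 39.8 ± 8.73 CPM in vehicle (log2 difference -0.89, edgeR adjusted p = 0.000172). The importin Kpna2, the highest of the list in mean TPM, was at 444 ± 18.3 against 371 ± 7.25 CPM (log2 difference 0.26, edgeR adjusted p = 0.000743). With counts thinned to the smallest total Abcb1b had edgeR adjusted p = 0.0511 in vehicle and 0.0718 in ivermectin. None of the 10 passed for ivermectin against vehicle in either genotype. The median log2 difference of the list was 0.12 in vehicle and 0.15 in ivermectin for knockout against wild type.

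Over the 16 libraries, the genes whose log2 CPM was most like each tested gene's were found among 10239 or 10240 genes whose log2 CPM averaged 3 or more. For Glrb these were Dctn5, Mrpl19 and Mtx3 (Pearson r = 0.801, 0.790 and 0.769), and for Gabra4 Pcgf1, Tbc1d10a and Cbx1 (0.853, 0.849 and 0.846). For Chrna7 they were Serpinb8, Kif18b and Mettl21a (0.902, 0.894 and 0.859), and for Kcnj6 Myb, Dnajb2 and Chd8 (0.901, 0.876 and 0.803). With group means removed the 12 values ran from 0.695 to 0.936. The points share their library and its depth, each is the highest of that many candidates, and the values are descriptions with no test.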

How the data were processed

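Polyadenylated RNA of 16 BetaTC6 libraries (4 groups of 4, taken from the labels) was analysed. Per the submitters' processing notes, bcl2fastq, STAR 2.7.2b, RSEM 1.3.3, DESeq2 1.32.0 and build mm10 were used; their order and settings are not given in the sources used here. Whole-number counts per gene came from the table the authors deposited, and all 373264 values of it equalled the RSEM expected counts of the deposited tables per library rounded down. Levels between genes are the TPM values in the tables the authors deposited, which RSEM scales by transcript length. Human single-cell files were not used.

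Genes were kept with edgeR's filterByExpr by group (minimum count 10, minimum total 15), which left 10820. Differences were tested with the edgeR 4.0.16 quasi-likelihood F test in R 4.3.3 (TMM factors, 1 mean per group, 16 libraries), with Benjamini-Hochberg adjustment over all genes tested and a threshold of 0.05. CPM values are scaled by TMM factors; SD and n are over libraries. The kit keeps strand per the labels, but the strand setting of the counting is not given in the sources used here. The tests were checked on simulated data. Alternatives were DESeq2 1.42.0, other scaling and filters, expected counts, thinning to the smallest total, a replicate block and leaving out each library. Named genes are the 8, P2ry1, listed genes that passed or had the highest TPM of their list, and the 3 genes most like each tested gene. Some listed genes are not reported here. Genes given only by their counts or as family members were named for their role. The 8 genes and all lists were chosen with earlier results of these data known. Coordinates and promoters are from RefSeq on GRCm38.p6, the assembly of mm10.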

Additional observations from a re-analysis of the deposited data

Results flagged for a closer look

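In 28 sets of 4 libraries, 1 per gene and group, 3 held a library far from the other 3 by Dixon's test. Each of these sets is a gene at 0 in the rest of its group and rests on 1 or 2 counts. Any set with a single library above 0 is flagged, whatever its level. The number of about 1.4 that the test gives by chance is for continuous values, so it cannot be compared with these 3. Glra1 was at 0.978 CPM in wild-type vehicle replicate 2, from 1 count. Glra3 was at 0.581 CPM in knockout vehicle replicate 1, from 1 count. Gabrb2 was at 1 CPM in knockout vehicle replicate 2, from 2 counts. All 3 lie under the level that a count of 0 allows in a single library, 1.49 to 3.36 CPM.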

How the results depend on the processing

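Depth limited these genes: Kcnj6 had 2 to 14 counts per library and Chrna7 3 to 33. Of 466 values of the 4 tested genes under other settings, 438 kept their direction and their side of the threshold, 20 changed sign, 7 lost the threshold and 1 gained it; none of the 20 sign changes was of a value past the threshold. The causes were not tested. The number of the 8 genes kept was 4 with expected counts and without any single library. Kcnj6 fell under the filter, and has no value, when only the libraries compared were fitted and when counts were thinned to the smallest total. Chrna7 likewise has no value for ivermectin in wild type when only those libraries were fitted.

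For knockout against wild type in vehicle, 1 of the 4 genes (Gabra4) passed; DESeq2 gave 0, and the count was 0 to 1 over left-out libraries. Without wild-type vehicle replicates 1, 2 and 3 the Gabra4 adjusted p was 0.171, 0.0507 and 0.0846, and without knockout vehicle replicates 2, 3 and 4 it was 0.0628, 0.0902 and 0.0645 (edgeR), with log2 differences of 0.39 to 0.73 over left-out libraries. For knockout against wild type in ivermectin 0 passed, and 0 to 1 over left-out libraries: Chrna7 without wild-type ivermectin replicate 1.

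Sign changes were as follows, in log2. For ivermectin in wild type, Gabra4 was -0.00239 and Chrna7 -0.0524 without wild-type vehicle replicate 1, Glrb -0.0125 without replicate 3 and Kcnj6 0.17 without replicate 4, and Chrna7 was -0.40 without wild-type ivermectin replicate 1. For ivermectin in knockout, Kcnj6 was -0.0319 and -0.0448 without knockout vehicle replicates 1 and 3 and -0.31 without knockout ivermectin replicate 3. For knockout against wild type in vehicle, Glrb was 0.0144 with no filter, 0.000158 at a filter of 1 CPM in 4 libraries, 0.12 with thinned counts, 0.00515, 0.041 and 0.00297 without wild-type vehicle replicates 1, 2 and 4, and 0.0334 and 0.0117 without knockout vehicle replicates 1 and 4. In ivermectin it was -0.0619 with thinned counts. For the interaction, Glrb was -0.18 with thinned counts, Kcnj6 -0.12 without wild-type vehicle replicate 4 and Chrna7 0.15 without wild-type ivermectin replicate 1. The other ends of the ranges over left-out libraries were, for ivermectin in wild type, 0.33 for Gabra4, 0.33 for Chrna7 and -0.67 for Kcnj6, and for ivermectin in knockout 0.26 for Kcnj6. For knockout against wild type in vehicle it was -0.10 for Glrb, and for the interaction -0.58 for Chrna7 and 0.72 for Kcnj6.

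Same-numbered libraries showed at most a weak shared deviation. Over 24 pairs their correlation ran from -0.0566 to 0.145, and 2 were over 0.1. In 9 of the 24 the library correlated best with the one of its own number, out of 4 candidates. With the replicate block the log2 difference of Gabra4 was 0.56 (edgeR adjusted p = 0.0428) and no call among the 4 genes changed; over all genes the number past the threshold went from 24 to 47 for the interaction, from 65 to 71 for ivermectin in wild type and from 2240 to 2275 for knockout against wild type in vehicle.

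With no filter, 140, 23 and 82 genes passed for ivermectin in wild type, ivermectin in knockout and the interaction, against 65, 0 and 24. The 25 calls of other listed genes had 598 values under other settings, of which 31 lost the threshold; Chrnb4 in ivermectin lost it in 8 settings.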
